A study of Mus musculus with 16 samples.

Results

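The 8 genes of the MYC network described here are Myc, Mycn, Mycl, Max, Mga, Mxd1, Mxi1 and Mnt, and the data are the OCT4 peaks around them. A peak was assigned to a gene if its midpoint lay in the gene body or within 100 kb of any of the gene's annotated transcript starts, and the stretch of chromosome so defined is called the gene's territory. Of the 26704 peaks in the merged OCT4 list, 46 met the rule, which is 0.172% of the list. An exact Poisson interval for this count, at 95% confidence, ran from 33.7 to 61.4 and covers counting error only. No peak fell in more than 1 of the 8 territories.

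The peaks come from chromatin immunoprecipitation followed by sequencing (ChIP-seq) with an antibody against OCT4 in 2TS22C mouse embryonic stem (ES) cells. In this line a Tet-Off promoter drives the only active Sox2 gene, so that doxycycline shuts SOX2 off. The OCT4 libraries were 2 replicates without doxycycline (SOX2 ON) and 2 replicates kept in 1 µg/ml doxycycline for 26 h (SOX2 OFF), all grown in serum with LIF and 2 kinase inhibitors, CHIR99021 and PD184352. The study also made BRG1 libraries in 2TS22C, and H3K27ac libraries in 2TS22C and in the OCT4-regulated line ZHBTc4. Neither set is analysed here. All OCT4 libraries share a single cell line, and the study describes SOX2 as not fully lost at 26 h. The list holds chromosome, start and end only, so the depth is unknown, SOX2 ON cannot be set against SOX2 OFF, and a peak missing from the list cannot be told from a peak under the calling threshold. Replicate error cannot be given for any value, and no test was run. The 6 ES cell marker genes checked (Pou5f1, Sox2, Nanog, Esrrb, Zfp42 and Klf4) each had between 4 and 13 peaks by the same rule, but a peak list holds no expression with which to check the cell type.

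MYC, MYCN and MYCL are basic helix-loop-helix leucine zipper transcription factors that promote growth and proliferation. They bind the E-box DNA element as dimers with MAX, and MXD1, MXI1, MNT and MGA compete for the same partner, mostly in repressor complexes. In ES cells MYC proteins sustain rapid proliferation, while MGA and MAX are part of a variant Polycomb complex that silences germ cell genes.

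Sequences from the peaks of the network are given first, on build GRCm38 (mm10). The element sought for OCT4 together with SOX2 was the composite motif, CATTGTT followed directly by ATGCAAAT, read on either strand with at most 3 mismatches in its 15 bases. It was in 3 of the 46 peaks (6.52%), against 11.5% of all peaks, and these lay in the territories of Myc, Mycn and Mycl. The first sequence is the 300 bases at the centre of the peak nearest to Myc, at chr15:61978955-61979254 on the plus strand, with the match in capitals. It is shown because among the 8 members this and no other nearest peak held a composite match or an octamer.
Myc peak: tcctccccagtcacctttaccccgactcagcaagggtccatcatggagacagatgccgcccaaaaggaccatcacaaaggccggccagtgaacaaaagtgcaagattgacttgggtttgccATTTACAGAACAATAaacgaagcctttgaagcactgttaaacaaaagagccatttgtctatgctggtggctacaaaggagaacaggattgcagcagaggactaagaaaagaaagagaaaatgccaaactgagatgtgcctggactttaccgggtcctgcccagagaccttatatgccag
The match in this peak reads in the composite direction on the minus strand (chr15:61979076-61979090), and differs from the motif by C1T, A8C and C11T. Here the motif's base comes first, then its position counted from 1 at the 5′ end, then the genome's base. The other matches lie at chr12:12983163-12983177 on the minus strand, upstream of Mycn (shown within chr12:12983148-12983192), and at chr4:123001266-123001280 on the plus strand, in the 3′ UTR of Mycl.
Mycn match: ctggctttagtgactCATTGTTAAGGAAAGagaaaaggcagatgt
Mycl match: CTTTGTTATGCAATG
The Mycn match differs from the motif by T9A, C11G and T15G, which all lie in its OCT portion. The Mycl match differs by A2T, A14T and T15G. The letters searched are a description of the sequence, and a match was not shown to be the bound site.

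A second set of elements occurred several times within a single peak. The peak just upstream of Mycn held 3 copies of the ESRRB motif TCAAGGTCA (capitals, either strand; all shown on the plus strand), the element of the pluripotency nuclear receptor ESRRB. Of all peaks in the list, 0.015% held at least 3, which is 4 peaks.
chr12:12943262-12943300: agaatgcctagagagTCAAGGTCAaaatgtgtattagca
chr12:12943786-12943824: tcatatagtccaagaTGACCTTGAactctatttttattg
chr12:12943817-12943844: ttttattgaggaggaTGACCTTGAattg
The widest peak of the network, upstream of Mga, held 3 copies of the palindromic E-box CACGTG (capitals), which is the element that MYC and MAX bind. At least 3 were found in 0.0524% of all peaks, which is 14 peaks.
chr2:119872758-119872793: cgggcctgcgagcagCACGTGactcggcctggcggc
chr2:119873025-119873060: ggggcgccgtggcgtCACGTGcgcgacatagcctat
chr2:119873339-119873374: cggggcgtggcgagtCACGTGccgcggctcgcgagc
These elements were chosen for printing after the values were seen. Both shares are over peaks of all widths and base compositions, which were not matched. The Mycn peak was 754 bp wide and the Mga peak 991 bp, against a median of 352 bp in the list.

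Most members carried more peaks than the typical gene. The members were chosen with earlier results of these data known, so the comparison is a description only. The median member had 7 peaks (mean 5.75 ± 2.38, SD over the 8 genes), against a median of 3 over 21938 protein-coding genes, for which the middle 50% ran from 1 to 5. All 8 members had at least 1 peak, as did 85.7% of protein-coding genes, and 6 of the 8 had at least 6, compared with 20.5%. Mxi1 had 8 peaks, Myc, Mycl, Max and Mga had 7 each, Mycn had 6, and Mxd1 and Mnt had 2 each. The territories together span 1760 kb and held 26.1 peaks per Mb (exact Poisson interval 19.1 to 34.8), against 9.8 per Mb over the genome and a median of 14 per Mb over the territories of all protein-coding genes. The intervals of 6, 7 and 8 peaks overlap, and these members cannot be ordered by their counts. Members lie in gene-rich and gene-poor places alike, so the owner of a peak was not always clear. A member was the nearest protein-coding gene for 26 of the 46 peaks (56.5%, exact Clopper-Pearson interval 41.1 to 71.1%, counting error only), and another coding gene was nearer for the other 20.

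**Figure D1:**
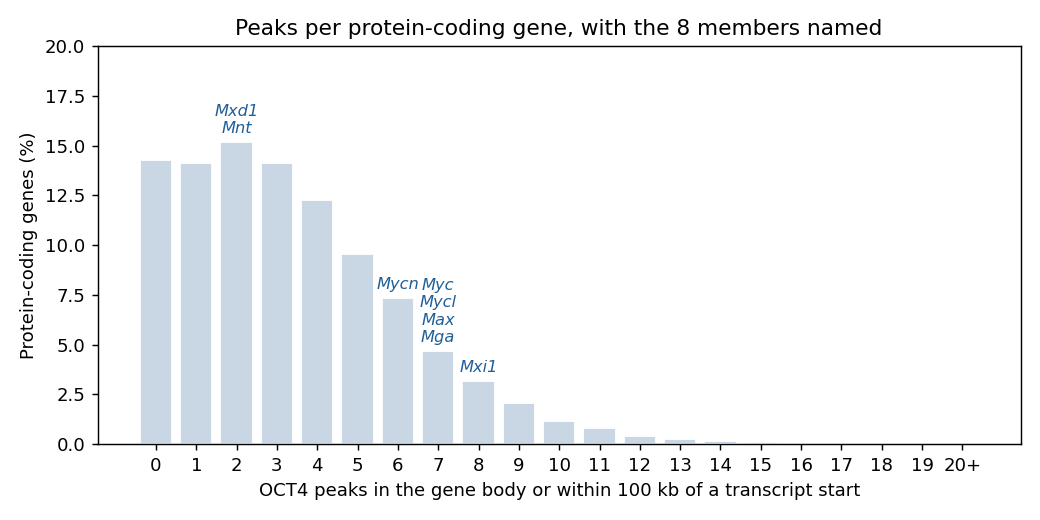
Peaks per protein-coding gene by the 100 kb rule (x axis, number of peaks; y axis, percent of 21938 genes as bars), with the 8 members named above the bar of their count. Mxd1 and Mnt stand with the most common counts at 2 peaks, and the other 6 members stand at 6 to 8 peaks, in the upper 20.5% of genes.

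**Figure D2:**
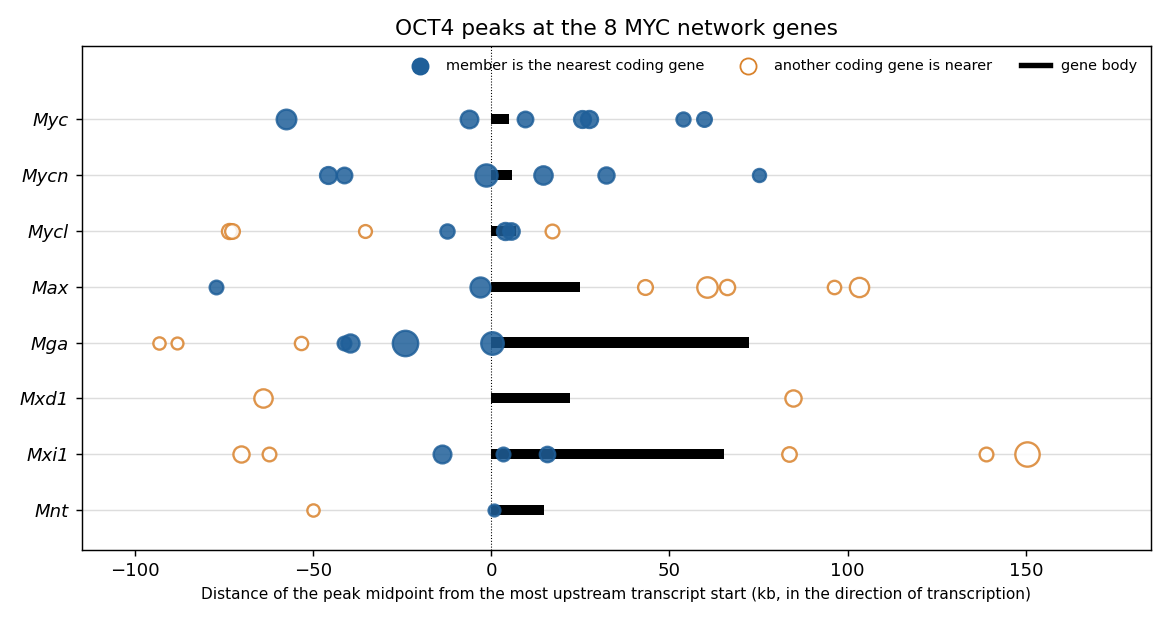
Position of each of the 46 peaks relative to the most upstream transcript start of its gene (x axis, kb in the direction of transcription; 1 line per gene), with the gene body as a black bar and the area of each point scaled to peak width. Filled points have the member as nearest protein-coding gene and open points have another. All peaks of Myc and Mycn are filled, and all peaks of Mxd1 are open.

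Myc (chr15:61985391-61990374, plus strand) encodes c-MYC, and none of its 7 peaks lay in the gene body or within 1 kb of its starts. The nearest peak was 6.29 kb upstream of the start and 475 bp wide, and it is the peak with the composite match printed above. The widest, of 590 bp, lay 57.5 kb upstream. The other 5 peaks lay downstream of the gene at 7.48, 23.5, 25.4, 51.9 and 57.7 kb from the nearest Myc start, with widths of 302 to 446 bp. The last 2 of these fell inside Pvt1, a long non-coding RNA gene next to Myc, in an exon and an intron. No other protein-coding gene starts in the Myc territory, and all 7 peaks therefore had Myc as the nearest coding gene.

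Mycn (chr12:12936093-12941914, minus strand) encodes N-MYC, the MYC protein best known from neural and embryonic tissues. It had 6 peaks, 3 upstream and 3 downstream, and again no other coding gene in the territory. The nearest was 1.55 kb upstream of the start, just outside the 1 kb used for promoter-proximal peaks. At 754 bp it was also the widest of this gene, and it is the peak with the 3 ESRRB motifs. In all peaks the share with at least 1 ESRRB motif was 3.08%, and this was the sole member peak of 46 that had it (2.17%, 0.055 to 11.5%). The composite match lay in a 372 bp peak 41.3 kb upstream, and a peak 45.7 kb upstream, in an exon of the non-coding gene Gm35208, held 1 E-box. The downstream peaks lay 13.3, 30.8 and 73.8 kb from a Mycn start, the latter pair in introns of the non-coding genes Gm40271 and Gm48187.

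Mycl (chr4:122995652-123002485, plus strand) encodes L-MYC and was the MYC gene with peaks inside its body. A 446 bp peak, the widest of Mycl, lay 0.0895 kb from an internal start at position 122999339, which belongs to a processed transcript, and a 413 bp peak in the 3′ UTR held the composite match and a KLF motif. Another peak lay 12.4 kb upstream. The other 4 of its 7 peaks were nearer to other genes. They were a pair of peaks nearest to Cap1, a promoter-proximal peak 0.303 kb from a start of Mfsd2a, the transporter of lysophosphatidylcholine, and a peak 3.9 kb from Trit1 in which 57.6% of the bases were repeat-masked.

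Myc and Mycn stood apart in the number of peaks once those beyond 100 kb were counted. When each peak in the list was given to the protein-coding gene with the nearest start at any distance, Myc received 20 peaks and Mycn 19. Only 20 of 21938 genes (0.0912%), Myc among them, had as many as Myc, and 26 (0.119%) had as many as Mycn, while the remaining members received 0 to 4. The domain within which Myc is the nearest coding gene spans 1.44 Mb, as large as that of only 0.802% of genes, and that of Mycn 0.484 Mb. Among the 1147 genes with a domain at least as large as that of Mycn, the median was 4 peaks (middle 50% 2 to 7), and 25 genes had 19 or more. Per Mb of domain the median of these genes was 4.07 peaks (middle 50% 1.69 to 8.58), against 13.9 for Myc and 39.2 for Mycn. The other members have smaller domains, of 0.0293 to 0.175 Mb. Their densities per Mb were 102 for Mycl, 35.6 for Mga, 34.1 for Mnt, 25.7 for Mxi1, 11.4 for Max and 0 for Mxd1. By density, Myc and Mycn therefore did not stand apart from the other members. A density as high as that of Myc was found in 105 of the 1147 genes (9.15%), and one as high as that of Mycn in 2, Mycn included. The set was defined by the domain of Mycn, so no gene in it has a smaller domain. Density was not compared among genes with domains of similar size, and the rank of Mycn is a description only.

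Far peaks lay mostly downstream at both genes, where the domains also reach farther. The Myc domain extends 531 kb upstream and 911 kb downstream of the gene's outermost starts, and that of Mycn 144 and 339 kb. Of the 13 beyond the rule nearest to Myc, 10 lay downstream and 3 upstream, and the farthest was 479 kb away. Pvt1 held 8 of them, 105.5 to 202.9 kb from a Myc start, so that with the pair inside the territory 10 of the 20 peaks of Myc lay in Pvt1. Of the 13 far peaks of Mycn, 12 lay downstream, between 118.8 and 311.2 kb, and 1 upstream. Per Mb of domain beyond 100 kb this was 12.3 far peaks downstream and 6.96 upstream for Myc, and 50.2 and 22.9 for Mycn, where the upstream value rests on 1 peak in 43.7 kb. One of them fell in Platr19, a pluripotency-associated non-coding transcript, and another in 3732407C23Rik. The 13 far peaks of Mycn held 2 composite matches and 2 octamers (ATGCAAAT), and the peak 136.7 kb downstream held both elements. The 13 far peaks of Myc held 1 composite match and no octamer. Of all peaks in the list, 11.5% held the composite motif and 11% the octamer. Counts this small do not set Mycn apart from Myc or from the list. Whether a far peak acts on Myc, Mycn, Pvt1 or another gene was not measured.

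**Figure D3:**
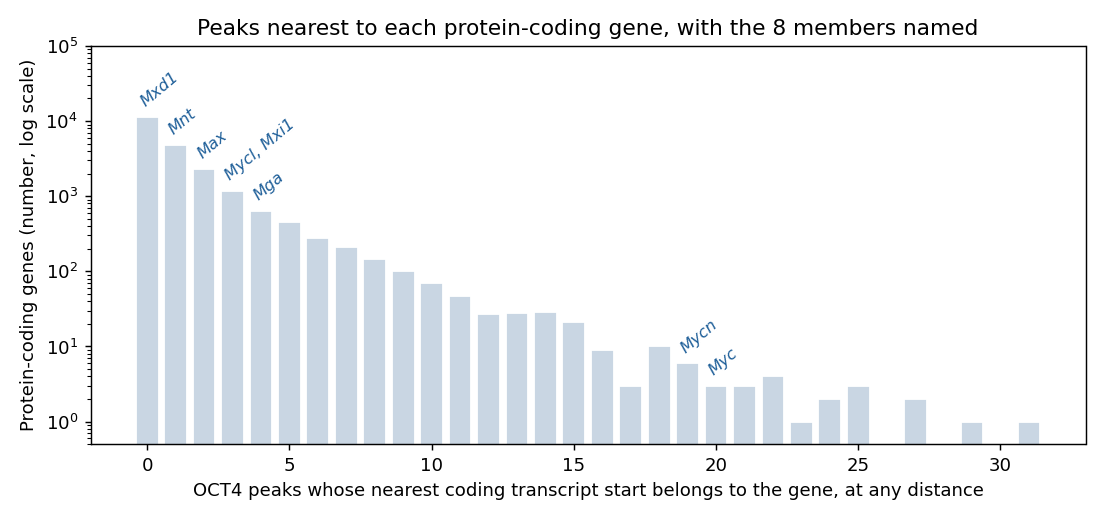
Protein-coding genes (y axis, number of genes on a log scale) by the number of OCT4 peaks whose nearest coding transcript start is theirs, at any distance (x axis), with the 8 members named at their counts. Myc at 20 and Mycn at 19 lie in the sparse right tail, and the other members lie at 0 to 4.

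Max (chr12:76937269-76962201, minus strand) encodes the shared partner of the whole network. A 611 bp peak with a KLF motif lay 3.1 kb upstream of its start, and a second lay 77.1 kb upstream. The other 5 of its 7 peaks, including the widest at 640 bp, were in introns of the neighbouring Fntb, which encodes the beta subunit of protein farnesyltransferase, and had Fntb as nearest gene. In 2 of those 5 more than 50% of the bases were repeat-masked (72.1% and 54.2%). Of the 7 peaks, 2 thus had Max itself as nearest coding gene, and neither held a composite match, an octamer or a SOX core.

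Mga (chr2:119897228-119969581, plus strand) encodes the MAX partner that carries a T-box as well and scaffolds the variant Polycomb complex. It was the sole member with a peak over its most upstream start. That peak (chr2:119897132-119897909) was 778 bp wide, with a GC content of 58% and a CpG ratio of 0.94, where the ratio divides the CpG dinucleotides counted by the number that the base composition would give. The 250 bases before the start in RefSeq's promoter table (GRCm38.p6, chr2:119896978-119897227, plus strand) are shown with the 96 that lie in the peak in capitals.
Mga upstream: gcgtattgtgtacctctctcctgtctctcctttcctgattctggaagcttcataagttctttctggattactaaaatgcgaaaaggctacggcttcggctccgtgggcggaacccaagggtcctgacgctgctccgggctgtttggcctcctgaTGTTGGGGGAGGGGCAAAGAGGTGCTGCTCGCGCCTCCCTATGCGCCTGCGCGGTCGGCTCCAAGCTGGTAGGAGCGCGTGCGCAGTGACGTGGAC
The peak edge falls inside the window, and the bases in capitals run up to the start. None of the 9 RefSeq promoters matched to 7 of the members (all but Myc), other than that of Mga, overlapped a peak. The share of all promoters that overlap a peak is not given here, so whether this is few or many cannot be said. These windows run from 250 bases before to 50 after each start, and 2 of the 9 (22.2%, those of Max and Mnt) held the E-box CACGTG, against 7.15% of 32851 promoters of the same length.

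The widest of the 46 peaks belonged to Mga too. It measured 991 bp (chr2:119872411-119873401), lay 24.3 kb upstream of Mga in intergenic sequence, and is the peak with 3 E-boxes printed above. Its GC content was 66.4% and its CpG ratio 0.993, although the nearest annotated transcript start of any kind lay 5.5 kb from its midpoint. A pair of peaks 39.7 and 41.4 kb upstream, of 499 and 287 bp, also had Mga as nearest coding gene. The remaining 3 of its 7 peaks were nearest to Tyro3, a receptor tyrosine kinase, and 2 of them lay within 1 kb of Tyro3 starts and held octamers (capitals, plus strand).
chr2:119804078-119804115: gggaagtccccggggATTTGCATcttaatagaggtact
chr2:119809069-119809106: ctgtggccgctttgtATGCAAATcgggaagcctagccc
Both octamers of the Mga territory therefore sat at Tyro3 and not at the promoter of Mga.

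The MXD and MNT proteins, which with MAX recruit SIN3 repressor complexes, had 12 peaks in all. The exact Poisson intervals of their counts overlap (0.242 to 7.22 for the 2 peaks of Mxd1 and of Mnt, 3.45 to 15.8 for the 8 of Mxi1). Mxi1 (chr19:53310518-53375810, plus strand) had 8, of which 3 had it as nearest coding gene. These lay 13.8 kb upstream of the gene (483 bp), 0.791 kb from the internal coding start at position 53313066 (289 bp), and 3.18 kb from a further internal start (363 bp). The peak close to position 53313066 was CpG-rich, with a GC content of 63% and a CpG ratio of 1.19, the highest ratio of the 46 peaks. The other 5 were nearest to Add3, Smndc1 or Dusp5, and 2 of them held octamers. These were a peak nearest to Add3 and the widest peak of the territory, of 908 bp. The midpoint of the 908 bp peak lay inside the non-coding genes 4833407H14Rik and Mirt1, in an exon of 1 or both.
chr19:53248131-53248168: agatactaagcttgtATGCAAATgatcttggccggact
chr19:53460561-53460598: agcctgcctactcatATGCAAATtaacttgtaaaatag
Mnt (chr11:74830920-74845725, plus strand) had a 216 bp peak in an intron 0.709 kb from its start, with a CpG ratio of 0.681, and a 231 bp peak in an intron of Mettl16, an RNA methyltransferase gene, that held 1 E-box. Mxd1 (chr6:86647042-86669161, minus strand) had no peak within 50 kb of any start. Its 2 peaks were a 515 bp peak in a coding exon of Gmcl1, 0.08 kb from a Gmcl1 start, with a GC content of 72.6% and a CpG ratio of 1.03, and a 403 bp peak nearest to Asprv1. No peak in the list had Mxd1 as its nearest coding gene. That Mxd1 had none is a statement about this list, since a peak under the calling threshold would not appear.

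Close to their own starts, 4 of the 8 members (Mycl, Mga, Mxi1 and Mnt) had a peak within 1 kb, as did 16.5% of protein-coding genes. Counting every coding gene, 8 of the 46 peaks were promoter-proximal (17.4%, 7.82 to 31.4%), against 13.8% of all peaks, and 4 of these 8 were at Mfsd2a, Tyro3 (2 peaks) and Gmcl1. By midpoint, 22 peaks were intergenic (47.8%), 19 intronic (41.3%), 3 in exons outside coding sequence and annotated UTRs, 1 in a coding exon and 1 in a 3′ UTR. With a GC content over 50% and a CpG ratio over 0.6 there were 5 peaks (10.9%, 3.62 to 23.6%), and such peaks made up 6.95% of the list. Of these 5, 4 were promoter-proximal, at Mga, Mxi1, Mnt and Gmcl1, and the exception was the intergenic peak with 3 E-boxes.

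The widths of the 46 peaks ran from 216 to 991 bp with a median of 368 bp (middle 50% 289 to 481), and those of all peaks had a median of 352 bp (267 to 471). The 26 peaks with a member as nearest coding gene had a median of 425 bp (314 to 495). The middle ranges overlap almost wholly, and merged peaks were as wide as the union of the calls behind them, so a width is no measure of binding strength. GC content had a median of 47.4% against 46.4%, and the repeat-masked share of bases a median of 14% against 13%. More than 50% of the bases were repeat-masked in 4 of the 46 peaks (8.7%, 2.42 to 20.8%), against 15.6% of all peaks. Of the 26 peaks with a member as nearest coding gene this held for 0, which allows up to 13.2%. By joining neighbours with midpoints within 10 kb, 10 pairs formed, holding 20 of the 46 peaks (43.5%, against 33.9% of all peaks in groups of 2 or more). Network peaks were joined only within a territory, so a group ends at its edge, while all peaks were joined along whole chromosomes. No group of the network reached 3 peaks at this distance, and 11% of all peaks were in groups of at least 3. With joining at 20 kb the network had 6 such groups. No value for all peaks at 20 kb is given here, so the 6 groups cannot be read as clustering at these genes.

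**Figure D4:**
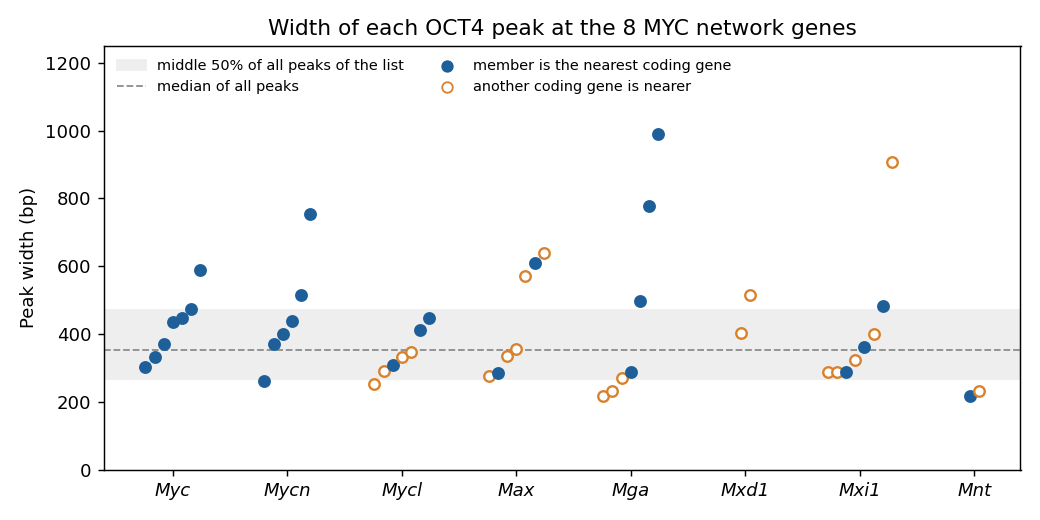
Width in bp (y axis) of each of the 46 peaks by gene (x axis), sorted by width within a gene. Filled points have the member as nearest protein-coding gene, open points have another, the dashed line is the median of all 26704 peaks and the grey band their middle 50%. The widest peaks belong to Mga (991 and 778 bp), Mxi1 (908 bp) and Mycn (754 bp), and both Mnt peaks lie under the band.

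Motifs of OCT4 and SOX2 were no more common in the peaks of the network than in the list. The composite motif with at most 3 mismatches was in 3 of 46 peaks (6.52%, 1.37 to 17.9%), against 11.5% of all peaks. With at most 2 mismatches it was in 0 of 46, which allows a share of up to 7.71%, and in 2.21% of all peaks. The octamer, which is also the OCT portion of the composite motif, was in 4 of 46 peaks (8.7%, 2.42 to 20.8%) and in 11% of the list. All 4 had another coding gene nearer, so that 0 of the 26 peaks nearest to a member held it, which allows up to 13.2%. The SOX core (CCATTGT or CCTTTGT), which overlaps the composite motif in part, was in 10 of 46 (21.7%, 10.9 to 36.4%), against 30.3%, and in 4 of the 26 (15.4%, 4.36 to 34.9%). Of the 10, 5 were at Myc, Mycn and Mycl, 3 at Max (all within Fntb) and 2 at Mxi1. At least 1 of the 3 elements occurred in 14 of 46 peaks (30.4%, 17.7 to 45.8%) and in 43.7% of the list, and in 5 of the 26 (19.2%, 6.55 to 39.4%). The shares for the list lie within the intervals for the 46 peaks for each element, and for the 26 peaks for each except the presence of any, where 43.7% lies above the upper bound. The 46 peaks include neighbours in 8 places only, so the intervals are no measure of how other genes would behave.

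**Figure D5:**
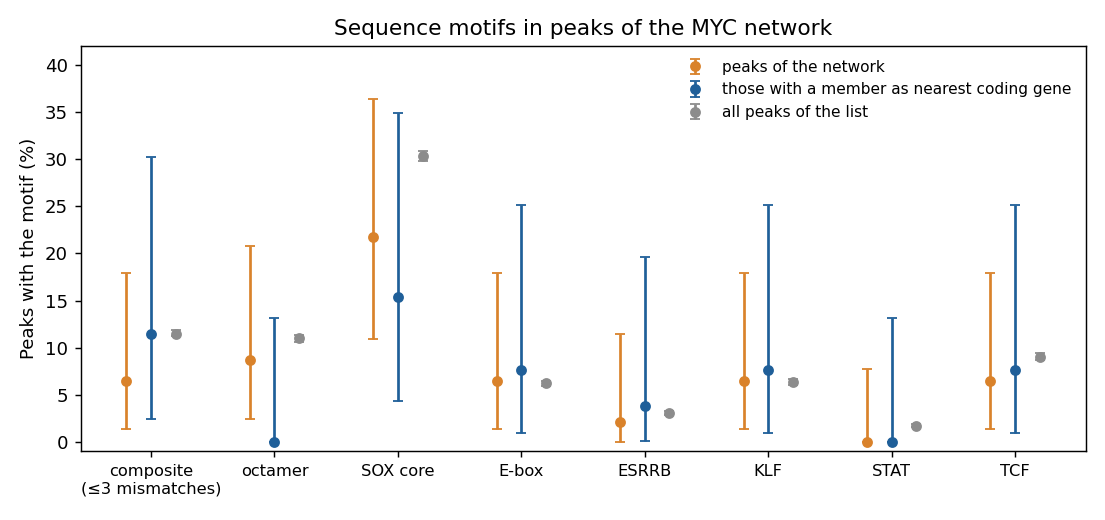
Share of peaks holding each motif (y axis, percent; x axis, motif) in the 46 peaks of the network, in the 26 with a member as nearest coding gene and in all 26704 peaks, with exact 95% binomial intervals that cover counting error. The composite motif stands at 6.52, 11.5 and 11.5%, and the SOX core at 21.7, 15.4 and 30.3%, and the intervals of the smaller sets are wide.

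The elements of other factors were about as frequent as in the list. The E-box was in 3 of 46 peaks (6.52%, 1.37 to 17.9%), at Mga, Mycn and Mnt, against 6.23% of all peaks. The motif CCACACCC of KLF factors was in 3 peaks (6.52%), at Mycl, Max and Mxi1, against 6.35%. CTTTGAT, the element of the WNT effectors of the TCF family, was in 3 (6.52%), at Myc, Mycn and Mycl, against 9.05%. TTCCNGGAA, bound by STAT factors downstream of LIF, was in 0 of 46, which allows up to 7.71%, and in 1.73% of the list. Each motif was searched on both strands without mismatch, and the absence of a match says only that these letters were not in the peak.

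The other 32 genes of the network and its surroundings were counted by the same rule. Of these, 31 had at least 1 peak and 8 had at least 6, with a median of 4 (7 for the 8 members) and a range of 0 to 10. A peak within 1 kb of an own start was found for 10 of the 32. Over all protein-coding genes, 85.7% had at least 1 peak, 20.5% had at least 6 and 16.5% had a peak within 1 kb of an own start. The other 5 members of the MXD and MLX branches (Mxd3, Mxd4, Mlx, Mlxip and Mlxipl) all had a peak, with a median of 3, which is also the median of all protein-coding genes, 85.7% of which had a peak. The 7 genes of the MGA complex all had a peak as well, with the same median of 3, and Rnf2, the catalytic RING1B subunit, had 6, of which 3 lay within 1 kb of its starts. Among the 5 MYC cofactors the median was 5. Only 1 peak of Ruvbl1, and 0 of those of Trrap, Ep400 and Ruvbl2, had that gene as nearest coding gene. Zbtb17, encoding the MYC partner MIZ1, had no peak by the rule, but its nearest peak lay about 100 kb away, at the edge of the rule. The 6 genes that set MYC stability had a median of 4.5, led by the kinase gene Pim1 with 10 peaks and Usp28, a deubiquitinase of MYC, with 9. For Pim1 and for Usp28, 5 of these had that gene as nearest coding gene. Fbxw7, the ubiquitin ligase subunit that marks MYC for degradation, had 4, and all 4 had it as nearest coding gene. The 9 MYC target genes had a median of 5, with 8 at Ncl (nucleolin), 7 at Cdk4 and 1 at Tert. Only 1 of the 8 peaks of Ncl, and 0 of the 7 of Cdk4, had that gene as nearest coding gene.

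At the edge of the rule, the farthest peak inside was 93.15 kb from a start for Mga and 90.74 kb for Mxi1, and the nearest peaks outside were 109.5 kb and 100.42 kb away. For Myc the farthest inside was 57.66 kb and the nearest outside 105.47 kb, and for Mycn 73.78 and 118.78 kb. At 50 kb the network had 27 peaks with a median of 4 per member, against 2 over protein-coding genes. At 20 kb it had 14 with a median of 1.5 against 1, and at 200 kb 80 with a median of 11 against 6. The median member thus exceeded the median gene at each distance, and by the least at 20 kb.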

How the data were processed

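OCT4 ChIP-seq was performed in 2TS22C mouse ES cells, and the study comprised 16 libraries in 8 groups, of which 4 were OCT4 libraries. According to the submitters' processing notes and the study's methods, reads were aligned to mm10 with STAR 2.6.1c, duplicates were removed with Picard, peaks were called with MACS2 2.1.1.20160309 and peak files were merged with bedtools. The values deposited by the authors are the coordinates of merged peaks (3 columns: chromosome, start and end), with no height, p-value or count. Which OCT4 libraries entered the merge, and whether replicates were pooled, is not given in the sources used here. Merging joins overlapping calls and can widen peaks. The study's methods remove oversized peaks, peaks also called in input and blacklisted regions. The widest peak listed spans 38200 bp, so the size filter was not applied to this list, and whether the other filters were was not tested, which concerns the whole-list shares too.

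Coordinates are 1-based on GRCm38, whose chromosome names and lengths fit the list, on 21 chromosomes with GENCODE M21 genes. Peaks were assigned by midpoint, within 100 kb of any annotated start or in the gene body. Promoter-proximal means within 1 kb of a protein-coding gene's start. Motifs were searched in whole peaks on both strands. Repeat-masked bases are the lower-case bases of the RefSeq genome sequence. Intervals are exact Clopper-Pearson or Poisson intervals at 95% confidence. Computations ran in Python 3.11.15 with SciPy 1.17.1 and NumPy 2.4.6, figures in matplotlib 3.10.9, and the assignment and motif search were tested on simulated data with known answers.

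The 8 members and the other lists were chosen with earlier results of these data known. All members were described, and singly their nearest and widest peak and every promoter-proximal peak. Sequences were to be printed for a nearest peak with a composite match or octamer and for composite matches of at most 2 mismatches (there were 0). The other sequences were chosen after their values were seen. No replicate grouping was available and no test was run. BRG1 and H3K27ac were not analysed here. Alternatives were the distance, the transcripts used, peak width, repeats, joined peaks and motif stringency.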

Additional observations from a re-analysis of the deposited data

How the results depend on the processing

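Of 97 values recomputed under an alternative, 62 stayed within the tolerance and 35 moved past it, 12 of the latter among the 41 values for the network as a whole and 23 among the 56 for single genes. The tolerance was 1.5 times for a count, the exact 95% interval for a share and the middle 50% of widths for the median width, so with 46 peaks a share could change several-fold within it. Such shares were the E-box (6.52%, but 2.17% in the central 200 bp), the octamer (8.7%, but 3.12% in peaks of at least 300 bp), promoter-proximal peaks (17.4%, but 9.38% in peaks of at least 300 bp and 10.9% with a shorter promoter distance) and the composite motif (6.52%, but 11.5% in peaks with a member as nearest coding gene). The count of 46 peaks depended most on the distance: it was 27 at 50 kb, 14 at 20 kb and 80 at 200 kb, with a median per member of 4, 1.5 and 11. It was 43 with protein-coding transcripts only, 32 with peaks of at least 300 bp, 42 with peaks of at most 50% repeat-masked bases, and 45 after joining peaks within 1 kb. The share of peaks with a member as nearest gene was 56.5%, 77.8% at 50 kb, and 26.1% when transcript starts of all genes, non-coding ones included, were considered. The composite motif was in 0% of the peaks with at most 2 mismatches and in 30.4% with at most 4 (35.9% of all peaks). The octamer was in 0% of the peaks with a member as nearest coding gene. Groups of at least 3 peaks numbered 0 with joining at 10 kb and 6 at 20 kb, with no value for all peaks at 20 kb to set beside them. Fewer or more peaks at another distance follow from the rule itself, and for the other changes the cause was not tested.

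The count of peaks nearest to a member at any distance, 52, was added after seeing the data. It was 39 with peaks of at least 300 bp. No paired analysis was possible because per-library values are not part of the merged list, and for the same reason no replicate could be left out. Sequencing depth is unknown, so no limit of detection can be given.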
